A study of Homo sapiens with 15 samples.

Results

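The 53 genes described here carry out the transport and metabolic work of the renal proximal tubule. They were chosen by name, as a list of receptors, transporters and enzymes, and all 53 are among the 20033 protein-coding genes placed on hg38 with the GENCODE v44 annotation. ATAC-seq, in which the Tn5 transposase cuts and tags open chromatin, had been carried out on RPTEC, an epithelial line from the human proximal tubule immortalised with hTERT and kept under G418. The 15 libraries form 5 groups of 3 replicates. WT is the line with intact SETD2, which adds the third methyl group to lysine 36 of histone H3. KO1 and KO2 are single-cell clones with frameshifts in SETD2, made with Cas9 and a guide to exon 3. Rescue1 and Rescue2 are single-cell clones picked after KO cells received a lentivirus with full-length human SETD2 carrying a FLAG tag, and selection with blasticidin. All groups therefore carry hTERT and G418 selection, and the rescue clones also carry the virus and its selection. The labels do not name the KO clone behind the rescue clones, but the peak names in both rescue clones' lists begin with the prefix of KO2. A clone's 3 libraries repeat that clone, so each genotype other than WT rests on 2 clones.

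The proximal tubule takes back most of the sugar, amino acids, phosphate, bicarbonate and protein that the glomerulus filters, and secretes organic anions, cations and drugs. Luminal receptors and sodium-coupled carriers bring solutes in, basolateral carriers pass them on or load the cell for secretion, and ABC pumps and MATE carriers export toxins. The same cells make glucose and creatine, activate vitamin D and carry peptidases on the brush border. Proximal tubule cells in culture commonly lose part of this programme, and hepatocyte nuclear factors of the HNF1 and HNF4 families are known regulators of it.

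The measure was the accessible length of a locus: the number of bases under called peaks of a library within the gene body and 10 kb on each side. It is a length and not a read count, and a stretch without a peak lay below the calling threshold, which does not make it closed. Differences were tested with limma on log2(bases + 200), in 1 model of all 15 libraries and 5 groups, with Benjamini-Hochberg adjustment over the 19229 genes that had a peak in at least 3 libraries. All 53 genes passed that filter, SLC22A12 only through the KO2 libraries, where it was high. A locus was called where the adjusted p was below 0.05, and KO and rescue stand for the mean of their 2 clones. The 3 pooled comparisons share libraries, so they are not independent of each other.

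The lists held 197527 to 266011 peaks and 49.4 to 65.2 Mb under peaks per library, highest in Rescue2 replicate 1. They carry no reads, so the sequencing depth behind them is unknown here. SETD2 itself had a peak at its promoter in 15 of 15 libraries, which says nothing about a frameshift. Promoters of EPCAM, KRT8, KRT18 and CDH6 were under a peak in all 15 libraries (4 of 5 epithelial markers), as were 68.4% of all protein-coding promoters. Of 8 defining markers of the proximal tubule, however, 1 (ANPEP, aminopeptidase N) had a promoter peak in every library and 5 (CUBN, SLC34A1, SLC22A6, SLC22A8 and AQP1) had none in any. Summed promoter length over those 8 markers was 478 to 563 bases in WT, 910 to 1214 in KO and 1029 to 1205 in rescue. That sum came from ANPEP and LRP2, apart from 73 bases of SLC5A2 in Rescue1 replicate 1. ANPEP alone had 399 to 548 bases in WT, 727 to 989 in KO and 836 to 1118 in rescue. LRP2 had 0 to 79, 124 to 350 and 87 to 174, so the rise does not describe the 8 markers as a set. Over 8 markers of the loop of Henle and distal nephron it was 844 to 1228, 593 to 840 and 674 to 1030 bases, with UMOD, SLC12A3, KCNJ1, AQP2 and SCNN1B at 0 and CALB1 and SCNN1G under a peak in every library. Fibroblast markers, 3 of 4 of them (COL1A1, COL1A2 and PDGFRB) under a peak in every library, summed to 982 to 1278 bases in WT, 1251 to 1569 in KO and 1109 to 1362 in rescue. Over the 4 endothelial markers the sum was 230 to 356, 981 to 1064 and 552 to 1193 bases, with PECAM1 and VWF at 0 and CDH5 and KDR under a peak in every library. The 5 epithelial markers summed to 3462 to 4015 bases in WT, 2812 to 3237 in KO and 2789 to 3173 in rescue. The part of these marker shifts in the results below was not tested. In such bulk libraries, fewer cells with an open site and less opening per cell cannot be told apart.

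The sites at which peaks came and went at these loci are shown first, as hg38 sequence on the plus strand unless stated. Capitals mark a match to 1 of 3 motifs searched on both strands, namely HNF1 (TTAATNATT), HNF4 (CAAAGTCCA) and AP-1 (TGAGTCA). A pair of intronic sites of SLC13A1, the sodium sulfate cotransporter, had no peak in WT and a peak in 6 of 6 KO libraries. The larger one (chr7:123191173-123191472, the central 300 bases) was also occupied in 6 of 6 rescue libraries and the smaller one (chr7:123193322-123193472) in 2 of 6.
SLC13A1 larger site: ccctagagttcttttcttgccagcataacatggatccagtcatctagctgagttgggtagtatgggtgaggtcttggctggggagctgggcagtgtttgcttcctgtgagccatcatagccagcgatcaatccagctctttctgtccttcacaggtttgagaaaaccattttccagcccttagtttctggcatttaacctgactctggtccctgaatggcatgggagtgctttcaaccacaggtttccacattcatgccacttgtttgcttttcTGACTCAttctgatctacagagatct
SLC13A1 smaller site: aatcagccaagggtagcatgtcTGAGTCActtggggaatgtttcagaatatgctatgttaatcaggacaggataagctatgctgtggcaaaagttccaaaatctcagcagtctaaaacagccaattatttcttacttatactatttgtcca
Intronic sites of LRP2, which encodes megalin (chr2:169159732-169159973), and of SLC16A9, a carnitine carrier (chr10:59689013-59689296), appeared in all 6 KO libraries and were occupied in 0 and 1 of 6 rescue libraries.
LRP2 intron: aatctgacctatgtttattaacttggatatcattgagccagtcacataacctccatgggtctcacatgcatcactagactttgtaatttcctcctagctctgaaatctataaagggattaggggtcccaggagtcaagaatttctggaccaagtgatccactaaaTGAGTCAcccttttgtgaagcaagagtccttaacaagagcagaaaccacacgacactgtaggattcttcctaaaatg
SLC16A9 intron: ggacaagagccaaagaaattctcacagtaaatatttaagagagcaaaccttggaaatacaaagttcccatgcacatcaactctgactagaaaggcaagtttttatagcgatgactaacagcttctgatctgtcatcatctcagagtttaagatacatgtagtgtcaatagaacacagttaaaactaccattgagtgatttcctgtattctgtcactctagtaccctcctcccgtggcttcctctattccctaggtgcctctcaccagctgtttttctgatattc
The opposite pattern, a peak in 3 of 3 WT libraries and none in KO or rescue, is shown by a site at SLC17A3 (chr6:25875558-25875857, the central 300 bases). It lies upstream of the start of the canonical transcript but within the annotated gene. The 250 bases upstream of the SLC17A1 start (chr6:25832053-25832302, printed on the minus strand, in the direction of transcription) are the promoter stretch where WT peaks lay. Both genes encode phosphate and urate carriers of the SLC17 family.
SLC17A3 upstream: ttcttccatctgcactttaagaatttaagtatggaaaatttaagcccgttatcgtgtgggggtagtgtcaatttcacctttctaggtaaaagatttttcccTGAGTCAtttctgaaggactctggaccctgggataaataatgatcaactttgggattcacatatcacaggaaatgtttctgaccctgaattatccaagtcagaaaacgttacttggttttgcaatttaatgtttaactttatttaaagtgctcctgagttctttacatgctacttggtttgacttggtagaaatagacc
SLC17A1 promoter: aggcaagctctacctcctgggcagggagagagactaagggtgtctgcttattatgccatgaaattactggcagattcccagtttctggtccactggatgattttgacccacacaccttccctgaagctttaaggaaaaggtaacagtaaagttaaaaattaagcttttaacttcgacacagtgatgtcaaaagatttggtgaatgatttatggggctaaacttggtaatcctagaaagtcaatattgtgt
Sites lost in all 6 KO libraries and present again in all 6 rescue libraries lay upstream of SLC47A2, a drug exporter of the MATE family (chr17:19719369-19719527), and in an intron of DPP4, a brush border dipeptidyl peptidase (chr2:162063972-162064206).
SLC47A2 upstream: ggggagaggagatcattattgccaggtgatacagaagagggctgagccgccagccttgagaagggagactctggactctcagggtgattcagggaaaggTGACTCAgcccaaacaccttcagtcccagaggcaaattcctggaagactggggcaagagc
DPP4 intron: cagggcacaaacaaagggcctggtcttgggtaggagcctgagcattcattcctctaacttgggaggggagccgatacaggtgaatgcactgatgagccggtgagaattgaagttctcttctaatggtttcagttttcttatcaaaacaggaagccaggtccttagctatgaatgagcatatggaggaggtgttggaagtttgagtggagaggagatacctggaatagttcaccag
A site in the window of SLC2A9, a urate transporter (chr4:9805035-9805247), had a peak in the 6 rescue libraries alone. It lies within the annotated gene but outside its canonical transcript.
SLC2A9 window: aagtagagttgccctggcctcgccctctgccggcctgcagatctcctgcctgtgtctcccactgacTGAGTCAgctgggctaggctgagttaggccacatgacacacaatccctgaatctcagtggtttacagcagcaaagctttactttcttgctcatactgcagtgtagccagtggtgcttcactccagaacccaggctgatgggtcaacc

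The AP-1 letters occurred in 6 of the 9 sequences above and the HNF1 and HNF4 letters in none of them. These 9 were picked from a larger number of sites, so that count does not describe the loci. Sites not printed held HNF1 letters at SLC2A9 (chr4:9988491-9988790, gained in KO) and HNF4 letters at MIOX (chr22:50484637-50484732, lost in KO). Counted in windows of 300 bp, AP-1 was found in 150 of the 725 consensus regions at the 53 loci (20.7%), against 23.9% of all 295008 consensus regions, where a consensus region is a merged stretch with a peak in at least 2 libraries. Among regions at the loci gained in KO it was found in 8 of 26 (30.8%) and among those lost in KO in 3 of 21 (14.3%), against 31.8% and 14.4% of all regions gained and lost. HNF1 letters stood in 21 of the 725 regions (2.90%) against 2.56% of all, and HNF4 letters in 5 (0.690%) against 0.412%. In the promoter windows of 2001 bp around the start, HNF1 letters were present in 9 of 53 genes (17%) against 8.16% of all protein-coding genes, HNF4 letters in 3 (5.66%) against 2.2%, and AP-1 letters in 11 (20.8%) against 20.2%. These are matches of letters only.

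In KO against WT, 8 of the 53 loci gained accessible length, 12 lost it and 33 were not called, while 15.3% of all genes tested were called higher and 13.0% lower. The median log2 difference of the 53 loci was -0.06, against -0.01 over all genes. The 8 that rose were LRP2, SLC5A12, SLC13A1, SLC16A9, SLC22A12, SLC47A1, SLC7A8 and ANPEP. The 12 that fell were SLC4A4, SLC9A3, SLC22A7, SLC22A13, SLC17A1, SLC17A3, SLC7A7, SLC6A19, SLC6A18, MIOX, CYP27B1 and KL. When each library was scaled to its total bases under peaks, the median of all genes shifted by -0.10 and the split was 7 higher and 26 lower. Counts of loci that fell thus depend on whether total length under peaks is taken as equal between libraries, whereas no call of a single gene changed direction with that scaling.

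In rescue against KO, 14 loci gained length and 6 lost it, beside 27.7% and 7.43% of all genes, and the scaled split was 15 and 10. In rescue against WT, 11 were higher and 9 lower, beside 21.5% and 4.35% of all genes, with a scaled split of 8 and 20 and a shift of the median of all genes by -0.15. Median log2 differences of the 53 loci were 0.10 and 0.03, against 0.09 and 0.08 over all genes.

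By their path from WT through KO to rescue, the 20 loci called in KO fell into groups. The same paths were not counted over all genes, so the counts below have no background beside them. The 20 include SLC22A12, which passed the filter only through KO2, where it was high. Of the 8 that rose, 4 were called back down and not called apart from WT (LRP2, SLC16A9, SLC22A12 and SLC7A8), 1 went down past WT (SLC5A12) and 3 stayed up (SLC13A1, SLC47A1 and ANPEP). Of the 12 that fell, 3 were called back up and not apart from WT (SLC4A4, SLC22A7 and SLC6A19) and 4 were called back up but remained lower than WT (SLC9A3, SLC6A18, MIOX and CYP27B1). SLC22A13, SLC17A3 and KL were not called back and stayed lower than WT, SLC17A1 fell further, and SLC7A7 was called in neither rescue comparison. Another 10 loci were called only with the rescue libraries, and 23 were called in no pooled comparison.

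**Figure D1:**
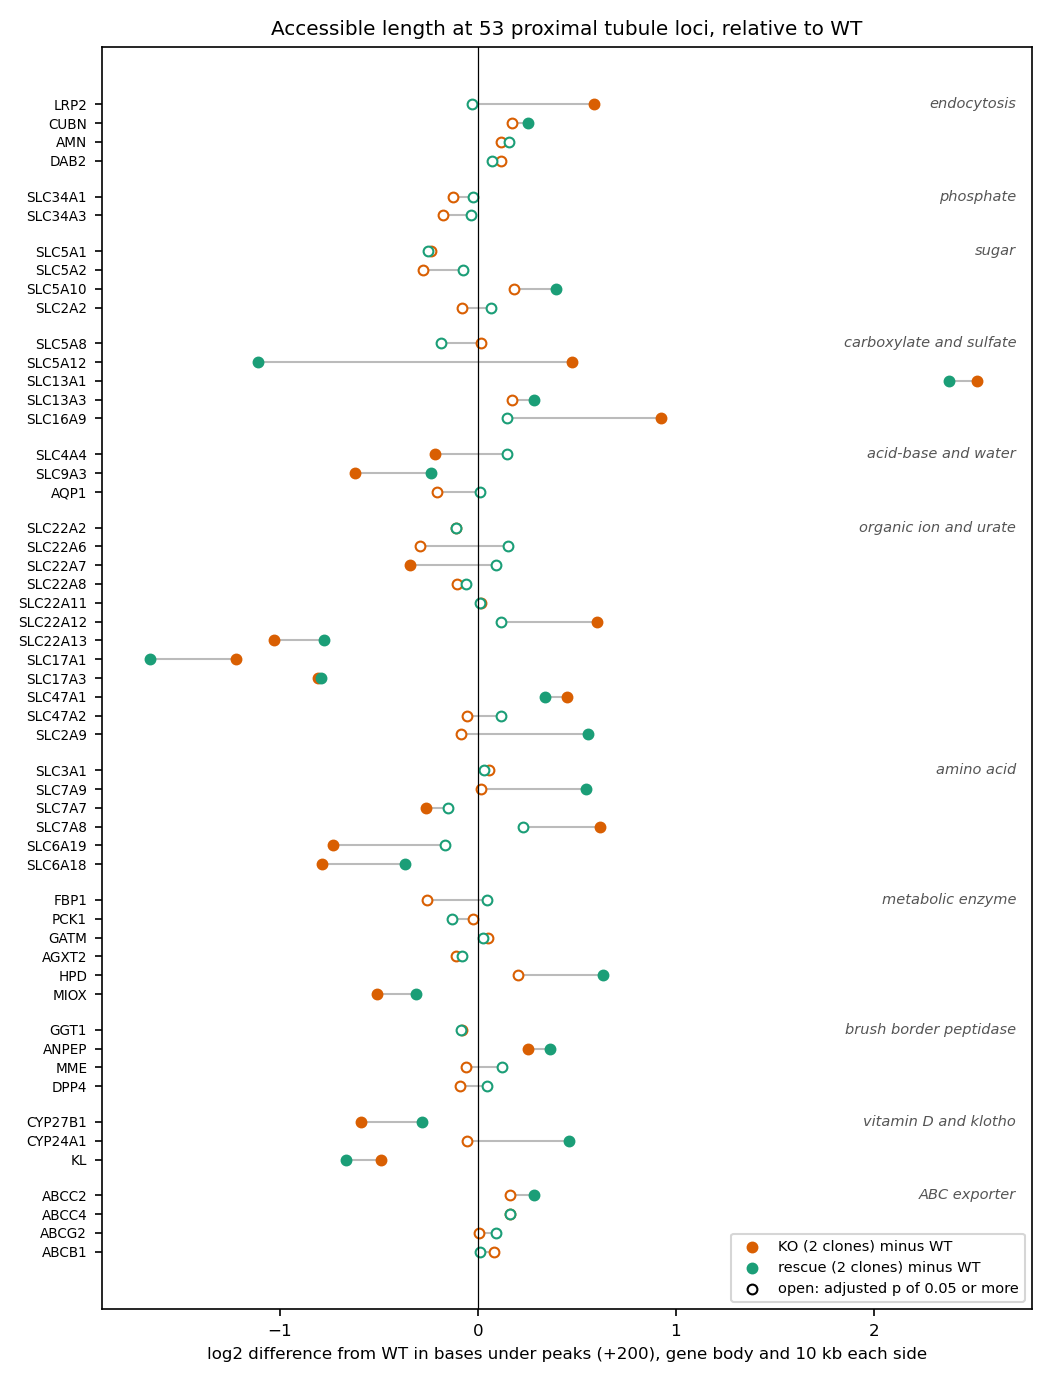
Log2 difference from WT in bases under peaks (+200) for each of the 53 loci (x axis), with genes by role on the y axis; orange points are KO (2 clones, 6 libraries) and green points rescue (2 clones, 6 libraries) against 3 WT libraries, filled where the adjusted p was below 0.05. SLC13A1 stands alone on the right in both (2.52 and 2.38), SLC17A1 is farthest left (-1.22 and -1.66), and LRP2 and SLC16A9 return close to 0 in rescue.

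Per kb of window, the most densely accessible of the 53 loci in WT were CYP27B1 (112 bases per kb, with 4 other genes starting in the window) and SLC34A1, the main phosphate carrier (102 bases per kb, with PFN3 starting in the window). Neither CYP27B1 nor SLC34A1 had a promoter peak in any library. The sparsest were SLC22A12 with 0, SLC5A8 with 0.696 and SLC13A1 with 1.77 bases per kb. SLC13A1 alone of these left the bottom of the order, with 19.1 bases per kb in KO and 17.2 in rescue. These are levels on a linear scale of length and all later differences are on the log2 scale. Counts by function below are to be set beside the shares of all genes called. In KO against WT these were 15.3% higher and 13.0% lower. In rescue against KO they were 27.7% and 7.43%, and in rescue against WT 21.5% and 4.35%. With so few genes per function, such a count does not mark a function out.

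Among the endocytic receptors, which take filtered protein out of the lumen, LRP2 was the one locus called in KO. Megalin, its product, is the large scavenger receptor of the brush border. LRP2 held 1732, 1447 and 1307 bases under peaks in WT, 2061 to 2865 (median 2341) in KO and 1116 to 1723 (median 1526.5) in rescue. The KO libraries lay above all WT and all rescue libraries without overlap. The log2 difference was 0.59 ± 0.12 (SE) for KO against WT (limma, adjusted p = 0.000684) and -0.62 ± 0.10 for rescue against KO (limma, adjusted p = 4.65e-05), and rescue and WT differed by -0.03 (limma, adjusted p = 0.891). Cubilin (CUBN), the partner of megalin, had 13642, 11922 and 11896 bases in WT, 13338 to 15125 in KO and 14057 to 16231 in rescue. For CUBN only rescue against WT was called (0.25 ± 0.07, limma, adjusted p = 0.0100), and that call was lost without WT replicate 2 (0.22) or WT replicate 3 (0.22), and with scaling to the total (0.09). AMN, which anchors cubilin, had 585 to 893 bases in WT, 729 to 962 in KO and 595 to 1085 in rescue, and DAB2, the adaptor that binds megalin, 3089 to 4151, 3658 to 4557 and 3280 to 4324. Neither was called, and their ranges overlapped in all 3 groups.

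**Figure D2:**
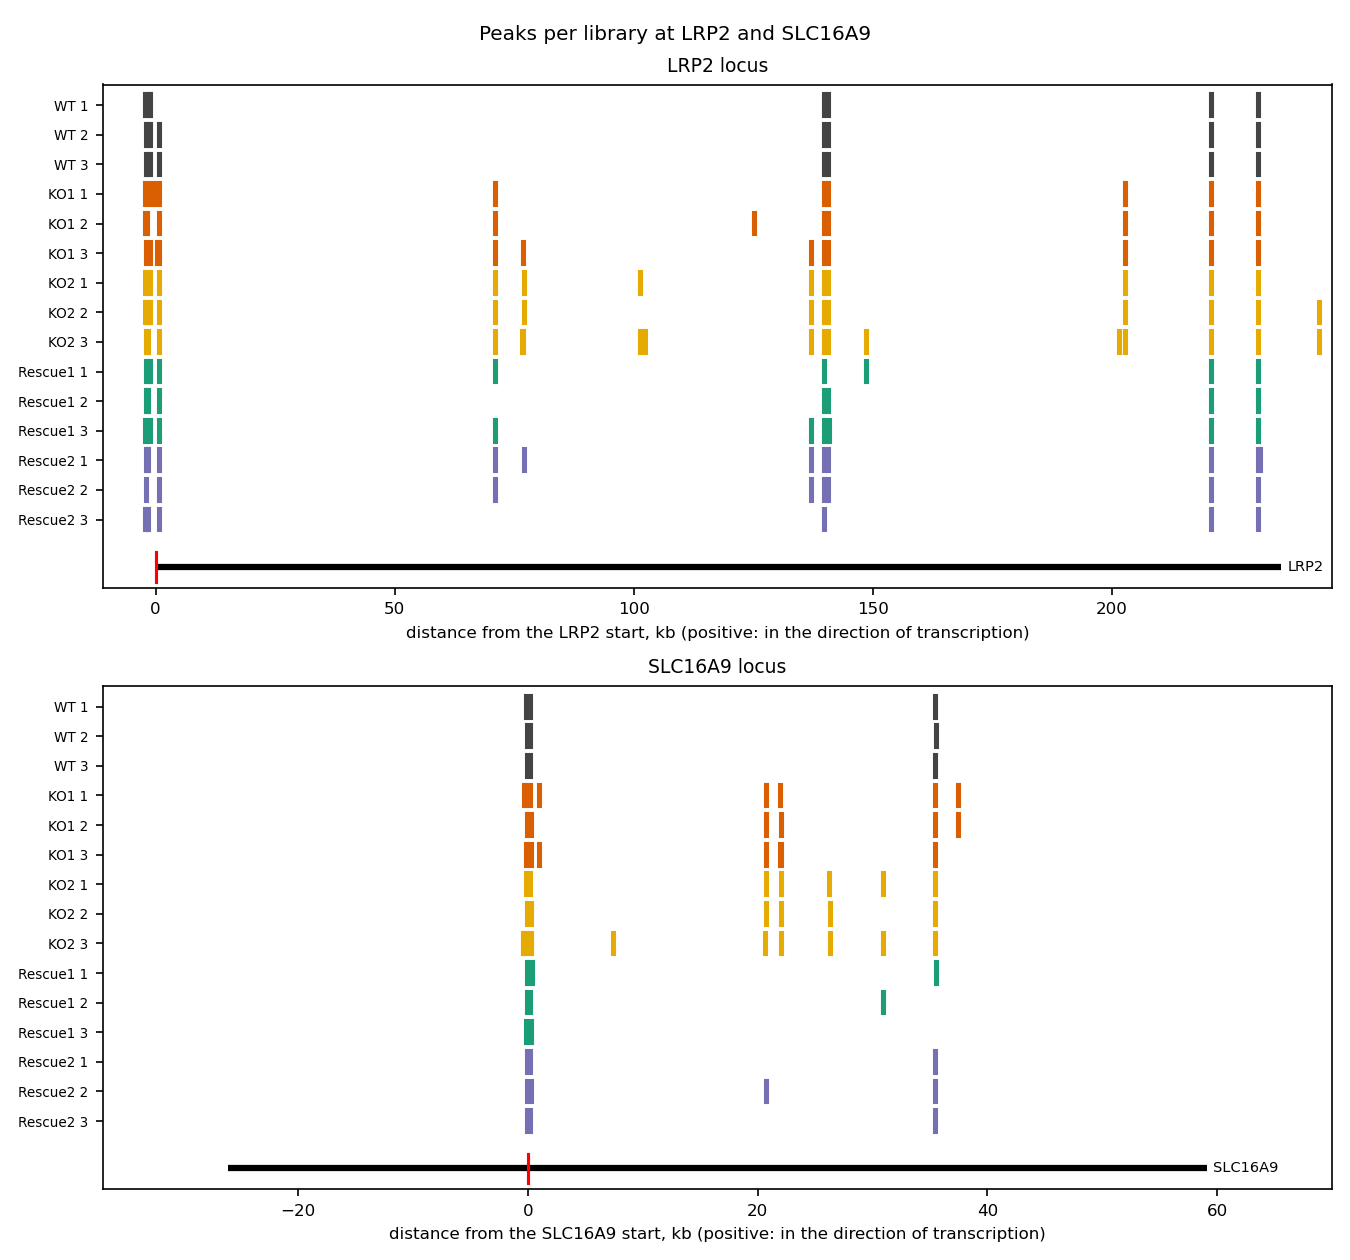
Called peaks of each library (rows; WT black, KO1 orange, KO2 yellow, Rescue1 green, Rescue2 violet) along LRP2 and SLC16A9, as distance in kb from the start of the canonical transcript (red tick; the black bar is the gene, and peaks are drawn at a minimum width). At LRP2 the site 203 kb into the gene carries peaks in the 6 KO libraries alone, and at SLC16A9 a pair of sites near 21 and 22 kb does so in KO, with 1 of them in 1 rescue library.

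Phosphate and sugar carriers were called at 1 of 6 loci. The share of all genes called in any pooled comparison was not counted. The phosphate cotransporters SLC34A1 and SLC34A3, the SGLT carriers SLC5A1 and SLC5A2 and the facilitative carrier SLC2A2 were called in none of the pooled comparisons. SLC34A1 had 4549, 3745 and 3863 bases in WT, 3559 to 3955 in KO and 3503 to 4354 in rescue. SLC34A3 had 2790, 2486 and 2477 bases in WT, 2134 to 2407 in KO and 2241 to 2902 in rescue, so that its KO libraries lay below WT without a call. SLC5A2, the high-capacity glucose carrier of the early tubule, had 1388, 1398 and 1229 bases in WT, 882 to 1169 in KO and 1018 to 1660 in rescue, again with KO below WT and no call. SLC5A10, a mannose and fructose carrier, was called in rescue. Its length was 4731, 4035 and 4440 bases in WT, 4647 to 5544 in KO and 4819 to 6259 in rescue, 0.21 ± 0.06 above KO (limma, adjusted p = 0.0121) and 0.39 ± 0.08 above WT (limma, adjusted p = 0.000625). The call against KO was lost without flanks (0.14), by number of peaks (0.20) and with KO2 as the sole knockout clone (0.16).

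The carboxylate and sulfate group held the largest change of the 53 loci. SLC13A1 takes sulfate from the lumen with sodium. Its locus held 173, 173 and 218 bases in WT, 1686 to 2219 (median 2067) in KO and 1459 to 2220 (median 1795.5) in rescue. WT libraries lay far below every other library. Mean length in KO was 10.8 times that of WT, and the log2 difference on the scale of bases + 200, which understates the change of a locus this short, was 2.52 ± 0.11 (limma, adjusted p = 4.1e-13). Rescue differed from KO by -0.14 (limma, adjusted p = 0.221) and from WT by 2.38 ± 0.11 (limma, adjusted p = 1.65e-12), so the locus did not return. No other protein-coding gene starts in its window. The length in WT was a single site in the gene, and 8 further consensus regions were present in 6 of 6 KO libraries and in no WT library, 5 of them in 6 of 6 rescue libraries as well. At the strongest of these the fold enrichment over local background was 10.9 to 14.9 in KO and 11.8 to 14.7 in rescue, each relative to its own library. The canonical start of SLC13A1 had no peak within 1 kb in any library.

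**Figure D3:**
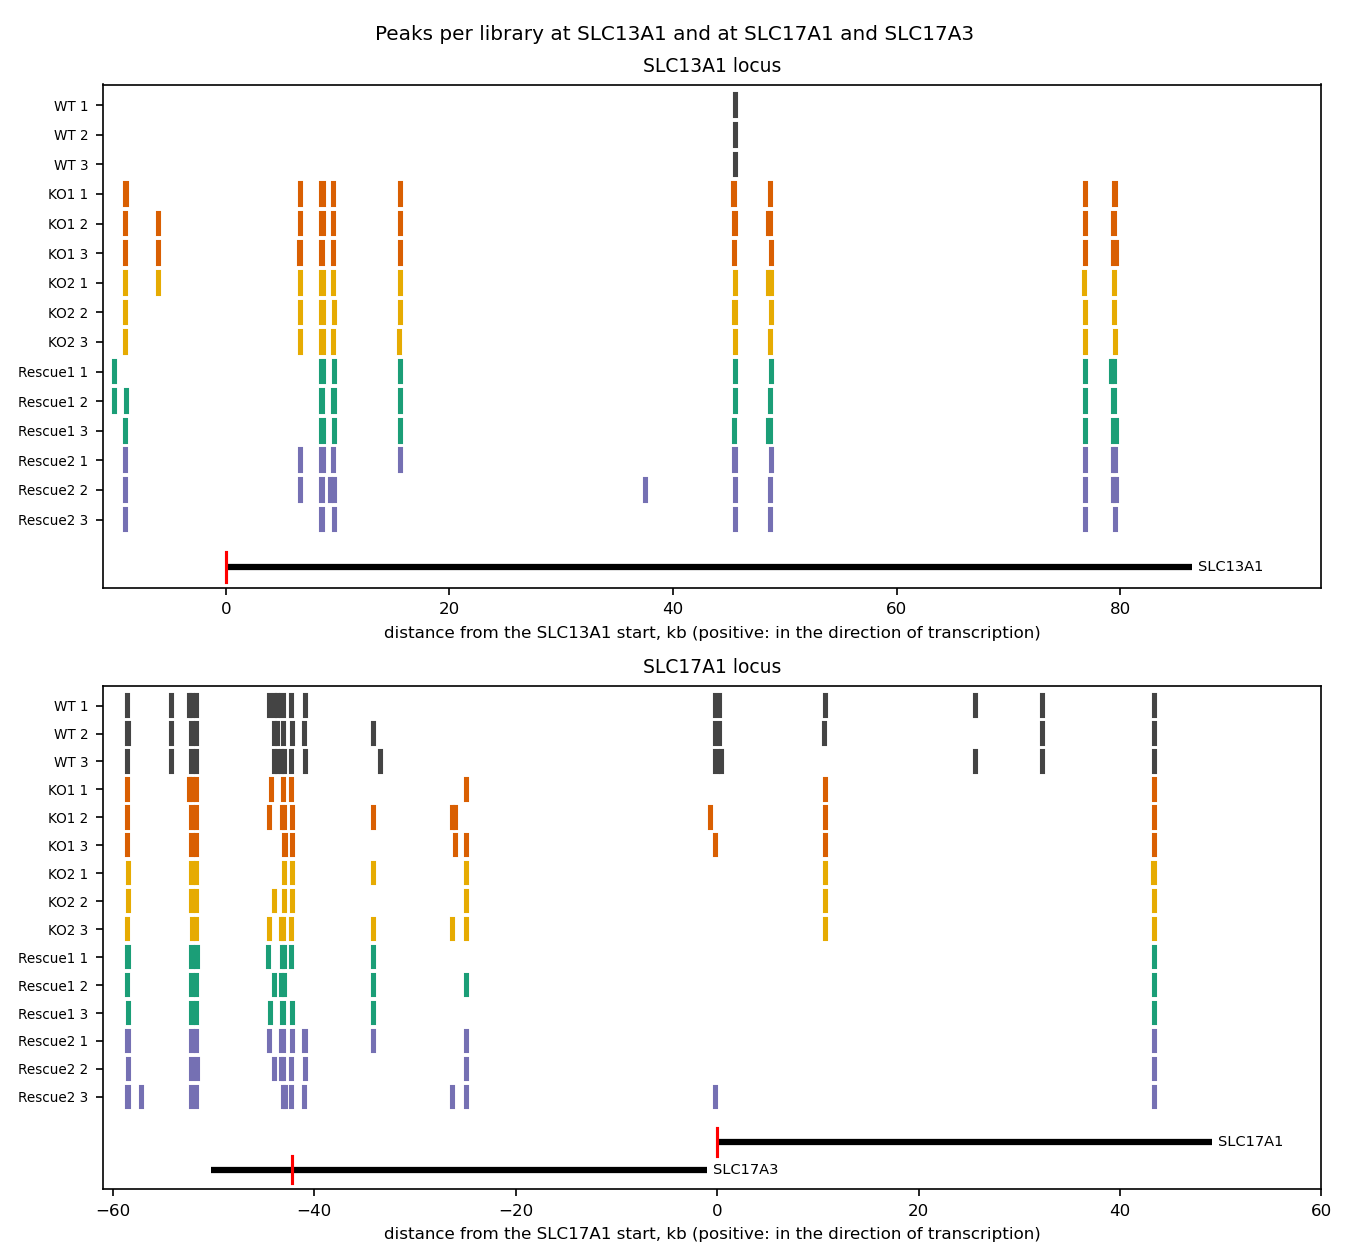
Called peaks of each library (rows, colours as for LRP2) along SLC13A1 and along SLC17A1 with its neighbour SLC17A3, as distance in kb from the start of SLC13A1 or SLC17A1 (red ticks are canonical starts, black bars genes; peaks are drawn at a minimum width). SLC13A1 has 1 peak per WT library and at least 7 in each KO and rescue library, and the peaks around the SLC17A1 start present in all 3 WT libraries are mostly missing elsewhere.

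SLC16A9, a carrier that lets carnitine leave the cell, rose in KO and returned. It had 722, 628 and 551 bases in WT, 1223 to 1669 (median 1352) in KO and 616 to 872 (median 708.5) in rescue. KO libraries overlapped neither WT nor rescue. Differences were 0.92 ± 0.11 for KO against WT (limma, adjusted p = 1.02e-06), -0.78 ± 0.09 for rescue against KO (limma, adjusted p = 6.93e-07) and 0.15 for rescue against WT (limma, adjusted p = 0.338). SLC5A12, which takes up lactate, had 451, 279 and 191 bases in WT, 206 to 793 (median 517.5) in KO and 0 to 111 (median 0) in rescue. Every rescue library lay below every KO and WT library (rescue against KO -1.59 ± 0.14, limma, adjusted p = 3.26e-08; rescue against WT -1.11 ± 0.17, limma, adjusted p = 7.23e-05). The SLC5A12 call in KO against WT (0.48 ± 0.17, limma, adjusted p = 0.0450) had overlapping groups, rested on KO2 (mean 740 bases, against 312 in KO1) and was lost on leaving out any of 7 of the 9 libraries (0.30 without WT replicate 3). SLC13A3, a dicarboxylate carrier, had 3934, 3436 and 3155 bases in WT, 3517 to 4432 in KO and 3423 to 5385 in rescue, and was called only in rescue against WT (0.28 ± 0.08, limma, adjusted p = 0.0124). That call was lost without WT replicate 2 (0.27) or WT replicate 3 (0.22), and with scaling (0.12). SLC5A8, a monocarboxylate carrier, had at most 235 bases in any library and a median of 0 in KO and in rescue.

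Acid-base carriers fell in KO and rose again in rescue, 2 of 3 members in each case. SLC9A3 encodes NHE3, the luminal sodium-proton exchanger that drives bicarbonate recovery. It had 2314, 1765 and 1787 bases in WT, 1085 to 1288 (median 1199.5) in KO and 1490 to 1786 (median 1603.5) in rescue. KO lay below both other groups without overlap. The differences were -0.62 ± 0.09 for KO against WT (limma, adjusted p = 1.45e-05) and 0.38 ± 0.07 for rescue against KO (limma, adjusted p = 0.000312). The remaining gap of rescue to WT was -0.24 ± 0.09 (limma, adjusted p = 0.0495), a call lost without any of 7 of the 9 libraries (-0.12 without WT replicate 1). With 25 kb flanks neither of the first 2 SLC9A3 differences was called (-0.11 and 0.07), and with the 150000 strongest peaks of each library the second was not called (0.29). SLC4A4, the basolateral bicarbonate carrier, had 10844, 8989 and 9567 bases in WT, 8019 to 9176 in KO and 9220 to 12636 in rescue. Its rise in rescue (0.36 ± 0.07, limma, adjusted p = 0.000220) had no overlap with KO, but the fall in KO (-0.22 ± 0.08, limma, adjusted p = 0.0474) overlapped WT and was lost without any of 7 libraries (-0.14 without WT replicate 1). AQP1, the water channel, had 1942, 1460 and 1359 bases in WT, 1047 to 1701 in KO and 1204 to 2039 in rescue and was not called.

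The 12 organic ion and urate carriers had 2 loci called higher and 4 lower in KO, 2 and 2 in rescue against KO, and 2 and 3 in rescue against WT. SLC17A1 (NPT1) fell in KO and fell again in rescue. It had 1268, 1111 and 951 bases in WT, 292 to 427 (median 369.5) in KO and 159 to 315 (median 187.5) in rescue. WT overlapped neither group, whereas KO and rescue overlapped each other. Its log2 differences were -1.22 ± 0.13 for KO against WT (limma, adjusted p = 5.53e-07), -0.44 ± 0.11 for rescue against KO (limma, adjusted p = 0.00400) and -1.66 ± 0.13 for rescue against WT (limma, adjusted p = 1.14e-08). The further fall in rescue was not called with the 150000 strongest peaks of each library (-0.18) or against KO2 alone (-0.29). The neighbouring SLC17A3 (NPT4) had 3301, 2880 and 2655 bases in WT, 1258 to 1989 (median 1578) in KO and 1412 to 1810 (median 1636) in rescue. It fell by 0.81 ± 0.11 on the log2 scale in KO (limma, adjusted p = 8.5e-06), did not differ by call between rescue and KO (0.02), and stayed lower than WT in rescue (-0.79 ± 0.11, limma, adjusted p = 1.86e-05). The SLC17A1 and SLC17A3 windows overlap, so both loci count some of the same peaks. Without the promoters of other genes, the SLC17A3 differences were -0.49, 0.03 and -0.46, and with no flank the last was not called (-0.47).

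SLC22A13 (OAT10), a urate and nicotinate exchanger, had 324, 354 and 329 bases in WT, 0 to 113 (median 89) in KO and 0 to 418 (median 98) in rescue. All KO libraries lay below WT (-1.03 ± 0.27, limma, adjusted p = 0.00635). The lower value in rescue (-0.78 ± 0.27, limma, adjusted p = 0.0384) overlapped WT and was lost without any of 7 libraries (-0.64 without Rescue2 replicate 2). SLC22A7 (OAT2) had 770, 906 and 851 bases in WT, 476 to 686 (median 653) in KO and 757 to 1226 (median 879) in rescue. KO lay below both groups (KO against WT -0.34 ± 0.11, limma, adjusted p = 0.0232; rescue against KO 0.44 ± 0.09, limma, adjusted p = 0.000790). The first of these calls was lost without WT replicate 2 (-0.30), WT replicate 3 (-0.34) or KO2 replicate 1 (-0.29), whereas without other genes' promoters both differences were larger (-0.74 and 1.06). SLC22A12 (URAT1), the main luminal urate reabsorber, had 0 bases in each WT library, 0 to 421 (median 78.5) in KO and 0 to 126 (median 0) in rescue. It was called higher in KO (limma, adjusted p = 0.0482) and lower in rescue than in KO (limma, adjusted p = 0.0437), but both calls had overlapping groups and each was lost without any of 8 libraries, among them KO2 replicate 3. Its length lay mostly in KO2 (76 to 421 bases, against 0 to 81 in KO1), and without KO2 it would not have been tested. These calls therefore lend no support to a change at SLC22A12. No fold is given against a group at 0.

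SLC47A1 (MATE1), which exports organic cations into the lumen, rose in KO and stayed up. It had 2347, 1988 and 1921 bases in WT, 2768 to 3198 (median 2857) in KO and 2468 to 2860 (median 2697) in rescue. WT lay below all other libraries (KO against WT 0.45 ± 0.07, limma, adjusted p = 0.000101; rescue against WT 0.34 ± 0.07, limma, adjusted p = 0.00206), and rescue and KO differed by -0.11 (limma, adjusted p = 0.167). SLC2A9, the basolateral urate carrier, rose with rescue alone. It had 6369, 6480 and 5968 bases in WT, 5155 to 7004 (median 5774.5) in KO and 8393 to 10235 (median 9351.5) in rescue. The 6 rescue libraries lay above the 9 others (rescue against KO 0.64 ± 0.07, limma, adjusted p = 5.04e-07; rescue against WT 0.56 ± 0.09, limma, adjusted p = 6.36e-05). SLC22A2 (OCT2), the anion exchangers SLC22A6 (OAT1), SLC22A8 (OAT3) and SLC22A11 (OAT4), and SLC47A2 (MATE2) were called in no pooled comparison. SLC22A6 and SLC22A8, which load the cell with anions for secretion, had 302 to 548 and 423 to 459 bases in WT, 143 to 622 and 301 to 671 in KO, and 290 to 675 and 194 to 649 in rescue.

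**Figure D4:**
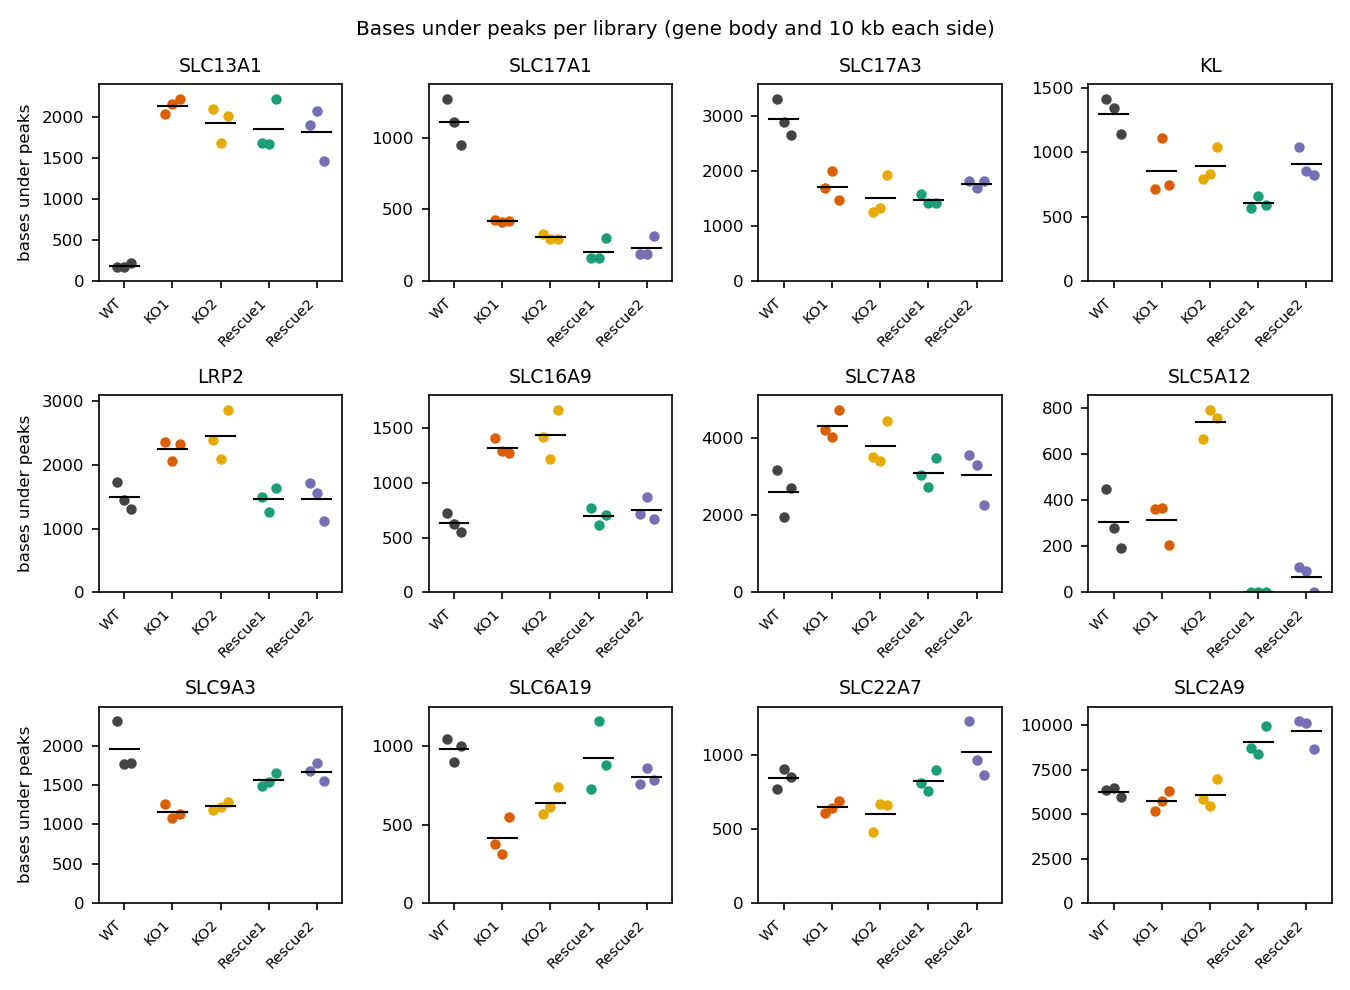
Bases under peaks per library (y axis) at 12 of the loci in WT, KO1, KO2, Rescue1 and Rescue2 (x axis); each point is a library, 3 per group, and the bars are group means. SLC13A1, SLC17A1, SLC17A3 and KL keep the KO-side level in rescue, LRP2 and SLC16A9 in rescue lie below every KO library and overlap WT, and SLC2A9 is highest in the rescue clones.

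Of 6 amino acid carriers, 1 rose and 3 fell in KO. SLC7A8 (LAT2), the light chain of a basolateral neutral amino acid exchanger, had 3164, 1939 and 2716 bases in WT, 3420 to 4732 (median 4128.5) in KO and 2258 to 3568 (median 3185) in rescue. KO lay above WT (0.62 ± 0.13, limma, adjusted p = 0.00151), and rescue was lower than KO with overlap (-0.39 ± 0.11, limma, adjusted p = 0.00942) and not called apart from WT (0.23, limma, adjusted p = 0.234). SLC6A19 (B0AT1) brings neutral amino acids in from the lumen. It had 1044, 897 and 1005 bases in WT, 316 to 739 (median 557.5) in KO and 729 to 1161 (median 822) in rescue. It fell in KO without overlap (-0.73 ± 0.13, limma, adjusted p = 0.000179) and rose in rescue with overlap (0.57 ± 0.10, limma, adjusted p = 0.000281). With the gene body alone the fall in KO was not called (-0.28). Its neighbour in the family, SLC6A18 (B0AT3), had 939, 894 and 688 bases in WT, 219 to 697 (median 432) in KO and 398 to 725 (median 628.5) in rescue. All 3 groups overlapped (KO against WT -0.79 ± 0.13, limma, adjusted p = 0.000132; rescue against KO 0.42 ± 0.11, limma, adjusted p = 0.00531). Rescue against WT (-0.37 ± 0.13, limma, adjusted p = 0.04999) was lost without any of 7 libraries (-0.29 without Rescue2 replicate 3). With KO2 as the sole knockout clone, neither SLC6A18 difference with KO was called (-0.41 and 0.04), nor was either with the 150000 strongest peaks of each library (-0.37 and 0.14). The SLC6A19 and SLC6A18 windows overlap, so both count some of the same peaks.

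SLC7A7 (y+LAT1), a basolateral exchanger for cationic amino acids, had 7669, 6111 and 6293 bases in WT, 5130 to 5912 in KO and 5429 to 6701 in rescue. It fell in KO (-0.26 ± 0.07, limma, adjusted p = 0.0120), a call lost without WT replicate 1 (-0.16). SLC7A9, the light chain of the cystine carrier, had 562, 443 and 410 bases in WT, 447 to 497 in KO and 553 to 1124 (median 741) in rescue. It rose in rescue against KO without overlap (0.53 ± 0.09, limma, adjusted p = 0.000188) and against WT with overlap (0.55 ± 0.12, limma, adjusted p = 0.00139), although with 25 kb flanks the difference from WT was -0.07. With the 150000 strongest peaks of each library neither SLC7A9 difference was called (0.05 and 0.10). SLC3A1 (rBAT), the heavy chain of the same carrier, had 3796 to 4673 bases in WT, 4187 to 4698 in KO and 4089 to 4550 in rescue and was not called.

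Among the 6 metabolic enzymes, MIOX was the one locus called in KO. MIOX opens the ring of myo-inositol and is a kidney enzyme. It had 1916, 1648 and 1789 bases in WT, 1069 to 1385 (median 1171) in KO and 1277 to 1537 (median 1404.5) in rescue. WT lay above all others (KO against WT -0.51 ± 0.08, limma, adjusted p = 5.84e-05; rescue against WT -0.31 ± 0.08, limma, adjusted p = 0.00669). Rescue rose over KO by 0.20 ± 0.07 (limma, adjusted p = 0.0253) with overlap, a call lost without any of 6 libraries (0.17 without Rescue2 replicate 1). Without the flanks MIOX was not called in KO (-0.13), and its rescue against WT difference was 0.23, so these calls rest on the sequence beside the gene, where ADM2 lies. HPD, of tyrosine breakdown, had 1329, 1121 and 982 bases in WT, 1126 to 1571 (median 1351) in KO and 1499 to 2145 (median 1870.5) in rescue. It rose in rescue against KO (0.43 ± 0.09, limma, adjusted p = 0.00124) and against WT (0.63 ± 0.11, limma, adjusted p = 0.000334), and both calls were lost without flanks (0.17 and 0.20). FBP1, of gluconeogenesis, had 1238, 859 and 1158 bases in WT, 706 to 1111 in KO and 863 to 1321 in rescue, and its rise in rescue against KO (0.30 ± 0.11, limma, adjusted p = 0.0348) was lost without any of 5 libraries (0.23 without KO2 replicate 2). PCK1, the other gluconeogenic enzyme, had 464, 421 and 431 bases in WT, 365 to 525 in KO and 336 to 432 in rescue. GATM, which starts creatine synthesis, had 3342, 2825 and 2784 bases in WT, 2787 to 3617 in KO and 2796 to 3419 in rescue. PCK1, GATM and the aminotransferase AGXT2 were not called, and their groups overlapped.

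The 4 brush border peptidases had 2369 to 4316 bases in WT, 2541 to 3988 in KO and 2542 to 4511 in rescue over the group. They thus stayed accessible in every library, as did every other locus but SLC5A8, SLC5A12, SLC22A12 and SLC22A13. ANPEP had 2718, 2369 and 2515 bases in WT, 2541 to 3660 (median 3135) in KO and 2774 to 3801 (median 3398.5) in rescue. Rescue lay above WT (0.37 ± 0.09, limma, adjusted p = 0.00446), while the KO call (0.25 ± 0.09, limma, adjusted p = 0.0392) overlapped WT and was lost without any of 5 libraries (0.21 without WT replicate 2) and with scaling (0.15). With 25 kb flanks both ANPEP differences from WT turned (-0.06 and -0.04). MME (neprilysin) had 3622, 3149 and 3198 bases in WT, 2861 to 3651 in KO and 3428 to 3835 in rescue, and its rise in rescue against KO (0.18 ± 0.06, limma, adjusted p = 0.0234) was lost without any of 4 libraries (0.14 without KO2 replicate 2). DPP4, with 4316, 3598 and 3253 bases in WT, 3036 to 3988 in KO and 3358 to 4511 in rescue, and GGT1, which cleaves glutathione, with 2960 to 3606, 2799 to 3302 and 2542 to 3762, were not called.

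In the vitamin D and klotho group, CYP27B1 and KL fell in KO. KL encodes klotho, a coreceptor for FGF23. It had 1413, 1344 and 1141 bases in WT, 716 to 1109 (median 814) in KO and 565 to 1038 (median 744) in rescue. WT lay above all other libraries (KO against WT -0.49 ± 0.12, limma, adjusted p = 0.00345; rescue against WT -0.67 ± 0.12, limma, adjusted p = 0.000291), and rescue and KO differed by -0.17 (limma, adjusted p = 0.169). With the gene body alone, and with 25 kb flanks, KL was not called in KO (-0.01 and -0.10) or in rescue against WT (-0.23 and -0.16). CYP27B1, which activates vitamin D, had 3188, 2824 and 2938 bases in WT, 1386 to 2390 (median 1981.5) in KO and 2209 to 2655 (median 2398) in rescue. KO and rescue both lay below WT (-0.59 ± 0.09, limma, adjusted p = 3.49e-05; -0.28 ± 0.09, limma, adjusted p = 0.0241), the second call being lost without WT replicate 1 (-0.24) or WT replicate 3 (-0.29). Its rise in rescue against KO (0.31 ± 0.07, limma, adjusted p = 0.00258) depends on neighbours: 4 other genes start in the window, and without their promoters the difference was -0.43. It was not called with KO1 as the sole knockout clone (0.15). CYP24A1, which degrades active vitamin D, had 1392, 1086 and 1184 bases in WT, 563 to 1694 (median 1265) in KO and 1604 to 1886 (median 1759) in rescue. It rose in rescue against KO with overlap (0.52 ± 0.10, limma, adjusted p = 0.000382) and against WT without (0.46 ± 0.12, limma, adjusted p = 0.00720), the latter being lost without WT replicate 2 (0.39). The rise over KO was not called with KO1 as the sole knockout clone (0.13), whose mean was 1583 bases against 867 in KO2, and neither difference was called by number of peaks (0.08 and 0.15).

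ABC exporters, which pump conjugates and drugs out of the cell, had 0 of 4 loci called in KO against WT and 0 of 4 in rescue against KO. Most genes tested were likewise not called in each of these, with 15.3% higher and 13.0% lower in the first. In the second 27.7% were higher and 7.43% lower. ABCC4 (MRP4) had 10810, 9704 and 9820 bases in WT, 10131 to 12828 in KO and 10303 to 12147 in rescue. ABCG2 (BCRP) had 4098 to 4405, 3811 to 4712 and 4116 to 4981 bases, and ABCB1 (P-glycoprotein) 4286 to 4836, 4516 to 5429 and 4117 to 5332. The 3 groups overlapped at each of these loci. ABCC2 (MRP2) had 1858, 1580 and 1897 bases in WT, 1710 to 2400 in KO and 1873 to 2725 in rescue, and was called only in rescue against WT (0.28 ± 0.10, limma, adjusted p = 0.0416), with overlap. That call was lost without any of 6 libraries (0.21 without WT replicate 2) and with scaling (0.13).

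Promoters were examined apart from the rest of the window. A promoter was taken as 1 kb on each side of the canonical start, and as occupied where at least 1 bp lay under a peak. Of the 53 promoters 23 were occupied in all 15 libraries (43.4%), 22 in none (41.5%) and 8 in some, against 68.4% in all and 20.2% in none over the 20033 protein-coding genes. These classes, and the counts by function below, hold for the canonical start alone. Fewer of the 53 were in no library when any transcript start counted. No promoter of the 53 was strictly lost or gained between WT and KO or between KO and rescue. Function by function, promoters were occupied in every library for 4 of 4 brush border peptidases, 5 of 6 metabolic enzymes and 3 of 4 ABC exporters. They were occupied in no library for 2 of 2 phosphate carriers, 4 of 5 carboxylate and sulfate carriers, 2 of 3 acid-base and water genes and 6 of 12 organic ion carriers. The 8 between were LRP2, AMN, SLC5A2, SLC17A1, SLC2A9, SLC7A9, SLC7A7 and KL. SLC13A1, SLC5A12, SLC9A3, SLC22A7, SLC22A13, SLC6A19, SLC6A18 and CYP27B1 had no promoter peak in any library, so their calls came from sites elsewhere in the window.

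The length under peaks within the promoter could be tested at 29 of the 53 genes and at 15436 genes in all. In KO against WT 5 promoters gained length and 6 lost it, beside 4.50% and 7.90% of all promoters tested. In rescue against KO the counts were 4 and 1, beside 10.1% and 5.39%, and in rescue against WT 3 and 3, beside 3.84% and 5.28%. The SLC17A1 promoter had 758, 667 and 586 bases in WT, 0 to 113 (median 0) in KO and 0 to 150 (median 0) in rescue. WT stood clear of all other libraries (KO against WT -1.93 ± 0.17, limma, adjusted p = 2.32e-06; rescue against WT -1.98 ± 0.17, limma, adjusted p = 2.55e-06). The KL promoter had 752, 841 and 608 bases in WT, 179 to 485 (median 318.5) in KO and 0 to 306 (median 164.5) in rescue, with WT above all others. It was called lower in KO (-0.84 ± 0.24, limma, adjusted p = 0.0304) and lower again in rescue (-0.62 ± 0.19 against KO, limma, adjusted p = 0.0440). The first KL call was lost without any of 5 of the 9 libraries (-0.76 without WT replicate 2). The second was lost without any of 9 of the 12 libraries (-0.44 without Rescue2 replicate 2) and with a replicate block. SLC47A1 and ANPEP went the other way and kept the gain. At SLC47A1 the promoter had 274, 214 and 126 bases in WT, 794 to 1044 in KO and 409 to 859 in rescue above WT in every library (KO against WT 1.45 ± 0.13, limma, adjusted p = 2.55e-06; rescue against WT 1.15 ± 0.13, limma, adjusted p = 3.58e-05). At ANPEP it had 548, 485 and 399 bases in WT, 727 to 989 in KO and 836 to 1118 in rescue, again all above WT (0.64 ± 0.08, limma, adjusted p = 0.000108; 0.78 ± 0.08, limma, adjusted p = 1.96e-05). DPP4, whose whole locus was not called, lost promoter length in KO and regained part of it. Its promoter had 1450, 1095 and 1151 bases in WT, 555 to 799 in KO and 561 to 1173 in rescue, with KO below WT and rescue overlapping both. Differences were -0.71 ± 0.11 for KO against WT (limma, adjusted p = 0.000433), 0.32 ± 0.09 for rescue against KO (limma, adjusted p = 0.0256) and -0.39 ± 0.11 for rescue against WT (limma, adjusted p = 0.0403). The last 2 DPP4 calls were lost without any of 6 of 12 (0.26 without KO2 replicate 1) and 7 of 9 libraries (-0.28 without WT replicate 1), and the last also with a replicate block. MIOX did the same without remaining apart from WT, with 688, 556 and 655 bases in WT, 368 to 535 in KO and 545 to 663 in rescue (-0.37 ± 0.07, limma, adjusted p = 0.00281; 0.31 ± 0.06, limma, adjusted p = 0.00237). The other calls in KO were LRP2 (0.69), SLC16A9 (0.32) and AGXT2 (0.44) longer and SLC7A7 (-0.77) and GGT1 (-0.51) shorter, and in rescue SLC5A10 (0.41) and CYP24A1 (0.69) were longer than in KO and AGXT2 (0.37) longer than in WT. Of these, the calls lost without 1 or more libraries were SLC16A9 (5 of 9, 0.25 without WT replicate 3, and with a replicate block), SLC7A7 (4 of 9, -0.69 without WT replicate 1), GGT1 (2 of 9, -0.40 without WT replicate 3), SLC5A10 (6 of 12, 0.38 without KO2 replicate 1) and AGXT2 against WT (without WT replicate 2, 0.26). These differences are on the log2 scale of promoter bases + 200.

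**Figure D5:**
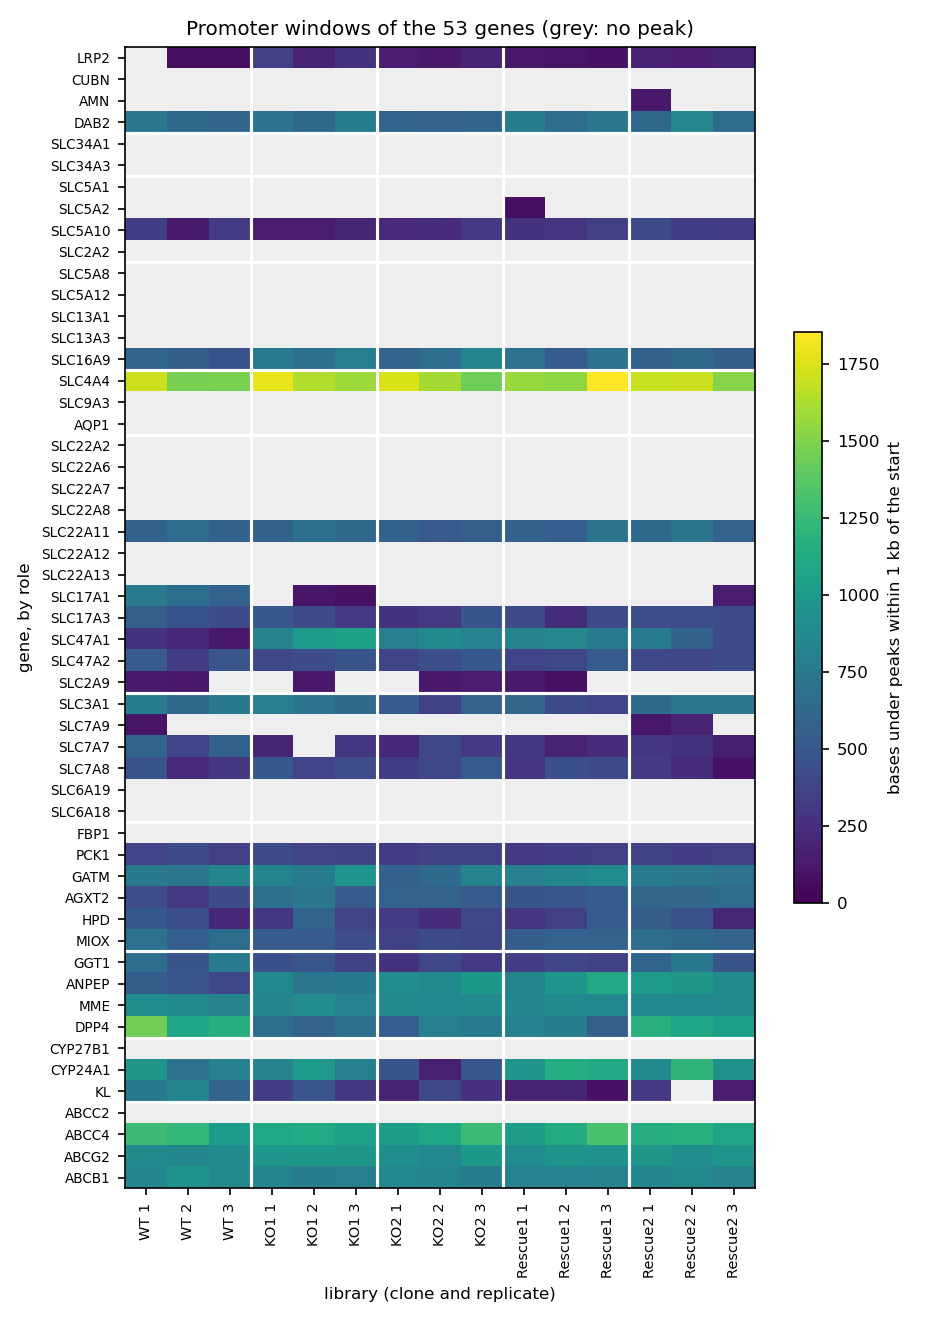
Bases under peaks within 1 kb of the canonical start (colour scale, grey where there was no peak) for the 53 genes by role (rows) in each of the 15 libraries (columns). The 4 peptidase rows and 3 of the 4 ABC exporter rows are filled in all 15 libraries, 22 rows (ABCC2 among them) are grey throughout, and the SLC17A1 row is filled in WT and nearly empty after it.

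Single sites were compared over the 725 consensus regions at the 53 loci. Of these 281 (38.8%), at 48 of the genes, were occupied in all 15 libraries, beside 35.6% of all 295008 regions. Regions present in 6 of 6 KO and no WT library numbered 26 (3.59%) at 14 genes, beside 4.79% of all, and regions present in 3 of 3 WT and no KO library 21 (2.90%) at 17 genes, beside 2.48%. Between KO and rescue 6 regions (0.828%) were gained at 6 genes, beside 0.910% of all, and 9 (1.24%) were lost at 7 genes, beside 1.24%. Sites seen in WT, absent from KO and back in 6 of 6 rescue libraries belonged to SLC47A2, DPP4 and SLC22A7, the last lying in a coding exon of the neighbouring gene CRIP3. The SLC9A3 intron held a site with 3 of 3 WT, 0 of 6 KO and 5 of 6 rescue libraries. Sites lost in KO and found in no rescue library lay at CUBN, DAB2, SLC4A4, SLC22A2, SLC17A1, SLC17A3, AGXT2, MIOX, GGT1, CYP27B1, ABCC4 and ABCG2, with a pair each at SLC17A3, MIOX and ABCC4. How all regions lost in KO divided in rescue was not counted, so these sites have no background beside them. Sites confined to the 6 KO libraries among all 15 were found at LRP2, SLC16A9 and SLC3A1. SLC3A1, SLC47A2, DPP4, GGT1, DAB2, SLC22A2, AGXT2, ABCC4, ABCG2 and ABCB1 had single sites that came or went although their whole length was not called. The SLC3A1 sites lay in the neighbouring gene PREPL, 1 of them in SLC3A1 as well.

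Taken clone by clone against WT, 5 loci were higher and 11 lower in KO1 and 9 higher and 9 lower in KO2, beside 24.2% and 22.9% of all genes called in either direction. In Rescue1 the counts were 6 and 8, beside 17.4%, and in Rescue2 12 and 7, beside 25.3%. The clones of a genotype differed at few of the 53 loci: 3 between KO2 and KO1, beside 3.17% of all genes, and 3 between Rescue2 and Rescue1, beside 3.55%. Leaving out Rescue2 replicate 3 raised the second count to 9 and leaving out Rescue1 replicate 1 brought it to 0. Since the rescue clones' peak names carry the KO2 prefix, rescue was also set against KO2 alone, where 13 of the 53 loci were called in place of 20. That comparison used fewer KO libraries, and the share of all genes called in it was not counted. LRP2, SLC16A9, SLC5A12, SLC9A3 and SLC2A9 were called with either KO clone alone, whereas the further fall of SLC17A1 (-0.29), the rise of SLC6A19 (0.34) and the return of SLC7A8 (-0.30) were not called against KO2 alone. SLC13A1, SLC17A1, SLC17A3, SLC16A9, LRP2, SLC9A3, SLC47A1, MIOX, CYP27B1, KL, SLC6A19 and SLC7A8 were called against WT with KO1 alone and with KO2 alone. With each of 6 libraries left out in turn, the KO2 call was kept 2 times for KL, 2 for SLC6A19 and 4 for SLC7A8. The KO1 call of KL was kept 5 times.

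A second list of 50 proximal tubule genes outside the 53, of which 49 were tested, had 7 loci higher and 11 lower in KO, 20 higher and 7 lower in rescue against KO, and 7 higher and 6 lower in rescue against WT. The shares of all genes called higher and lower were 15.3% and 13.0%, 27.7% and 7.43%, and 21.5% and 4.35% in the same order. With scaling the splits of the second list became 7 and 27, 23 and 10, and 5 and 16. Shares of all genes called with scaling were not counted for either list. Counted as number of peaks in place of bases, the KO against WT calls of ANPEP, KL, MIOX, SLC22A13, SLC22A7, SLC47A1, SLC4A4, SLC5A12, SLC7A7, SLC7A8 and SLC9A3 were lost, as were the rescue against KO calls of CYP24A1, FBP1, MIOX, MME, SLC22A7, SLC5A10, SLC6A18 and SLC7A8. An exact permutation test over libraries, two-sided and on the difference of mean bases, gave an unadjusted p below 0.05 for 53 of the 60 pooled calls at the 53 loci, where 0.0238 is the smallest p possible with 6 against 3 libraries and 0.00216 with 6 against 6. That test exchanged libraries freely although each clone supplied 3 of them. It was also counted over loci already called from the same libraries, so it is not separate support. The share of all genes with such a p was not counted. With each library left out in turn, 42 of the 60 calls were kept every time: 14 of 20 in KO against WT, 16 of 20 in rescue against KO and 12 of 20 in rescue against WT.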

How the data were processed

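Peak lists deposited by the authors were used, 1 for each of 15 ATAC-seq libraries. Per the labels, libraries were prepared with a Nextera kit. Reads were aligned by the authors with BWA (0.7.17 in the submitters' processing notes) to hg38, and each library had its own run of MACS2 (2.2.7.1). In every list deposited by the authors a peak has an interval, a whole-number score, a fold enrichment over local background (a ratio), the −log10 of p and q, and a summit. The interval was used for all measures, the −log10 q for ranking and filtering, and the fold enrichment for a description only. The authors tested reads with DiffBind, whereas lengths were tested here because the lists hold no reads, so the depth is unknown here and no counting interval is given. The labels' design text speaks of duplicates, but 3 libraries are labelled per group. Nothing says whether replicates came from separate cultures, so p-values measure the spread between these libraries, which may be technical.

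Autosomal, X and Y peaks were intersected with gene bodies and 10 kb flanks and with 1 kb on each side of canonical starts (GENCODE v44). Lengths were tested with limma 3.58.1 in R 4.3.3 (pseudocount 200 bases, trended variance, 5 groups, all 15 libraries, genes with a peak in at least 3 libraries, Benjamini-Hochberg adjustment), after the code had been tested on simulated data. Sequences were read from hg38 with pysam 0.24.0. Members given with values were those called in a pooled comparison (at most 15 in each, by size) and, in each of 11 role groups, those with the most and the fewest bases under peaks, and others were added after their values were seen. The printed sequences were chosen after the regions were seen, for their occupancy. The genes, the second list, the markers and the motifs were chosen with earlier results of these data known. Replicate numbers did not pair the libraries. Alternatives varied the flank, pseudocount, filter, scaling, peak threshold, measure and libraries used. The single KO clones, the removal of other genes' promoters and the promoter length were added after seeing the data. The sums over 2 of the marker lists are not reported here.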

Additional observations from a re-analysis of the deposited data

Results flagged for a closer look

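In 60 groups of 6 KO or rescue libraries examined at the loci called in a pooled comparison, 3 values stood apart from the other 5 by Dixon's criterion, which chance alone meets in about 1 of 20 groups. At SLC5A10 (a mannose and fructose carrier), Rescue2 replicate 3 had 4819 bases under peaks and the other rescue libraries 5826 to 6259. At SLC22A12 (a urate carrier), Rescue2 replicate 1 had 126 bases and the others 0. At SLC6A19 (a neutral amino acid carrier), Rescue1 replicate 2 had 1161 bases and the others 729 to 880.

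The clones of a genotype differed at 6 loci by limma's test of the difference itself (3 libraries against 3). KO2 was higher than KO1 at SLC5A12, with means of 740 and 312 bases (log2 difference 0.89, limma, adjusted p = 0.0127), and at SLC6A18, with means of 582 and 266 bases (0.75, limma, adjusted p = 0.00637). It was lower at CYP24A1, with means of 867 and 1583 bases (-0.77, limma, adjusted p = 0.00175). Rescue2 was higher than Rescue1 at SLC13A3 (4889 and 3801 bases; 0.35, limma, adjusted p = 0.0425), SLC7A9 (996 and 611 bases; 0.55, limma, adjusted p = 0.0234) and GGT1 (3591 and 2680 bases; 0.40, limma, adjusted p = 0.00758). The cause of these differences was not tested.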

How the results depend on the processing

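Of the tests of single loci repeated under every alternative, 1662 kept direction and call, 374 kept direction and lost the call, and 9 reversed. The cause was not tested except where the alternative itself shows it. Reversed values were ANPEP in KO against WT (-0.063) and rescue against WT (-0.039) with 25 kb flanks, SLC7A9 in rescue against WT with 25 kb flanks (-0.072) and in Rescue2 against Rescue1 with the 150000 strongest peaks per library (-0.041), CYP27B1 in rescue against KO with no flank (-0.74) and without other genes' promoters (-0.43), MIOX in rescue against KO by number of peaks (-0.33) and in rescue against WT with no flank (0.23), and SLC9A3 in rescue against WT by number of peaks (0.38).

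Counts of the 53 loci called moved by over 1.5 times as follows. Scaling to total bases gave 33 in KO against WT, 29 in KO1 against WT, 32 in KO2 against WT, 22 in Rescue1 against WT, 8 in KO2 against KO1 and 8 promoter lengths in rescue against KO. Counting peaks gave 11 in KO against WT and 10 in rescue against WT. Pooling the clones into 3 groups gave 13 in rescue against WT, and KO2 as the sole knockout clone 13 in rescue against KO. The 150000 strongest peaks gave 0 in Rescue2 against Rescue1. Exact permutation per gene, adjusted over all genes, gave 0 in KO against WT and 0 in rescue against WT, since 6 against 3 libraries allow no smaller p than 0.0238. Leaving out each library gave 15 to 20 in KO against WT, 17 to 28 in rescue against KO, 14 to 20 in rescue against WT, 14 to 16 in KO1 against WT, 14 to 19 in KO2 against WT, 8 to 11 in Rescue1 against WT (8 without WT replicate 3), 11 to 20 in Rescue2 against WT (11 without WT replicate 2 and 12 without Rescue2 replicate 2), 3 to 4 in KO2 against KO1 and 0 to 9 in Rescue2 against Rescue1. In the last, 0 loci were called without Rescue1 replicate 1, Rescue1 replicate 2 or Rescue2 replicate 2, 1 without Rescue2 replicate 1 and 9 without Rescue2 replicate 3. For promoter length the ranges were 8 to 11, 3 to 6 and 4 to 6 in the 3 pooled comparisons, the 3 in rescue against KO arising without either of the first 2 replicates of KO1 or KO2, without any Rescue1 replicate or without Rescue2 replicate 2. Of promoter classes, 1 promoter was gained in KO with 1 kb upstream alone and with an overlap of at least 100 bp, 1 was lost in KO with the 150000 strongest peaks, and 12 were in no library when any transcript start counted. The share of all genes in no library by any transcript start was not counted.

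Same-numbered libraries of different groups did not deviate together (correlations -0.16 to 0.05 over 30 pairs, 0 above 0.1), so the numbers were not taken as pairs. With a replicate block, 8 loci were higher and 11 lower in KO against WT, 14 and 6 in rescue against KO, and 11 and 7 in rescue against WT. Limits of these data are the absence of reads behind the lengths, the calling threshold that sets each peak's edge, 2 clones per genotype and windows shared with neighbouring genes.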
